A study of Mus musculus with 13 samples.

Results

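The regions described here are ESR1 ChIP-Seq sites that had a peak in both E2 replicate 2 and E2 replicate 3 and no peak in any of the 3 libraries of E2 plus fulvestrant. They are called members below and were chosen by peak presence alone, after all 12 peak lists were merged wherever peaks overlapped by at least 1 bp. Of the 228284 merged regions of the series, 37241 had a peak in both E2 libraries, and 3449 of these were members. This is 9.26% of the 37241 regions. E2 replicate 1 took no part in the selection. Because the presence of peaks under E2 and under E2 plus fulvestrant chose the members, those values are described and carry no test.

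The cells were primary skeletal muscle fibroblasts of Aromhum mice, which carry a human aromatase transgene under its own promoters. They were taken from the lower abdominal muscle (LAM) of animals that develop scrotal hernias, so every treatment was given to cells of the same genotype. All cultures were starved of serum and received either DMSO or 100 nM fulvestrant before either ethanol or 10 nM E2, with 1 hour of the latter. The treatments were vehicle (ethanol and DMSO), E2, E2 plus fulvestrant, and fulvestrant alone, with 3 libraries each. The labels did not say whether the libraries of a treatment came from separate mice or cultures, so the spread between them may be technical. Peak lists measure binding and not expression, and the identity of the cells could not be checked from them. No age was given in the labels.

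ESR1, the alpha form of the estrogen receptor, is a nuclear receptor that E2 turns into an active dimer on DNA. Its classic site is the estrogen response element (ERE), a palindrome of GGTCA and TGACC spaced by 3 bases, although much of its chromatin binding is found at sites without one. Fulvestrant competes with E2 for the receptor, prevents its active form and lowers its amount. The comparison of E2 with E2 plus fulvestrant therefore asks which E2 sites are no longer detected when the receptor is blocked.

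An ERE with at most 1 mismatch lay within 100 bp of the summit in 91 members, and in 17 of these it was exact. The sequences below are the 10 highest ranked of the 91, shown because they are the members in which the known receptor site and the absence under E2 plus fulvestrant coincide. They are read from the plus strand of GRCm38, the assembly of mm10 (RefSeq), and the capitals mark the element. Each line opens with the nearest gene.

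Fam189a2, intron, chr19:24025959-24026019: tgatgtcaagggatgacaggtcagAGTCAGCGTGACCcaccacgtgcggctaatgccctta
Tnfaip8l3, intergenic, chr9:54075036-54075096: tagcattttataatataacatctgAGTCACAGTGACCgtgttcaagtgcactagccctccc
Lrmp, intergenic, chr6:145104652-145104712: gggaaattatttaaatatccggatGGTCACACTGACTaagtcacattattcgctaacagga
Gm18363, intergenic, chr13:19551974-19552034: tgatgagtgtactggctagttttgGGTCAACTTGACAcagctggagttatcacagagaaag
Zfp280b, intergenic, chr10:76028489-76028549: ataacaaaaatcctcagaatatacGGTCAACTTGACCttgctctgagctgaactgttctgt
Notch1, intergenic, chr2:26524877-26524937: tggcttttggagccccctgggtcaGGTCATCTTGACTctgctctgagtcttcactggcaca
Gm49200, intergenic, chr14:75416339-75416399: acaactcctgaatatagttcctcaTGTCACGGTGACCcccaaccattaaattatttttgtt
Gm44169, intergenic, chr6:101464805-101464865: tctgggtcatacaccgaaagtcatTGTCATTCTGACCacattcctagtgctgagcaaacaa
Gm20750, intergenic, chr3:52876544-52876604: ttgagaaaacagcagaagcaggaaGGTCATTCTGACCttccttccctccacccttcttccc
Gm25875, intergenic, chr15:60057350-60057410: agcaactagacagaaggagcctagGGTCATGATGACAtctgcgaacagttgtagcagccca

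The elements near Zfp280b and Gm20750 matched all bases of both arms, and the other 8 had 1 mismatch. The windows near Gm18363 and Gm49200 were 89.1% and 80.1% repeat-masked, and the other 8 were at most 23.9% masked. None of the 10 was at a promoter. A further sequence is the summit of the highest ranked intronic member of Esr1, the gene of the receptor itself, which held no ERE with 1 mismatch or fewer.

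Esr1, intron, chr10:4806577-4806677: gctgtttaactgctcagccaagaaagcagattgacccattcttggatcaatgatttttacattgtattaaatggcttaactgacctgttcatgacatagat

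The members were weak peaks. The peak caller's fold and p-value together give the number of fragments at a summit and the number expected from the local background. In E2 replicate 2 the members had a median of 18 fragments over a background of 5.61, against 30 over 7.24 in the other 33792 regions shared by the 2 E2 libraries. In E2 replicate 3 they had a median of 19 over 6.13, against 35 over 7.91. The median −log10 p of members was 4.84 and 5.29, while that of the other regions was 9.89 and 12.3. The 90th percentile of members was 8.12 and 9.20, below the median of the other regions in both libraries. In E2 replicate 2, 142 members (4.12%) had a −log10 p of 10 or more, against 49.2% of the other regions. In E2 replicate 3, 243 members (7.05%) did, against 59.6% of the other regions.

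Strength can also be put as the mean rank of a region in the 2 E2 lists, from 0 for the strongest peak to 100 for the weakest. The median member ranked at 66.7 and the median other region at 30.8. No member was in the top 10 percent of either list. Only 22 members (0.638%) had a mean rank of 25 or better, against 41.4% of the other regions. A mean rank over 50 was found for 2861 members, or 83.0%, against 26.0% of the other regions. Requiring a q-value of 0.05 or less in both E2 libraries left 2813 members, or 81.6%, against 96.0% of the other regions.

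**Figure D1:**
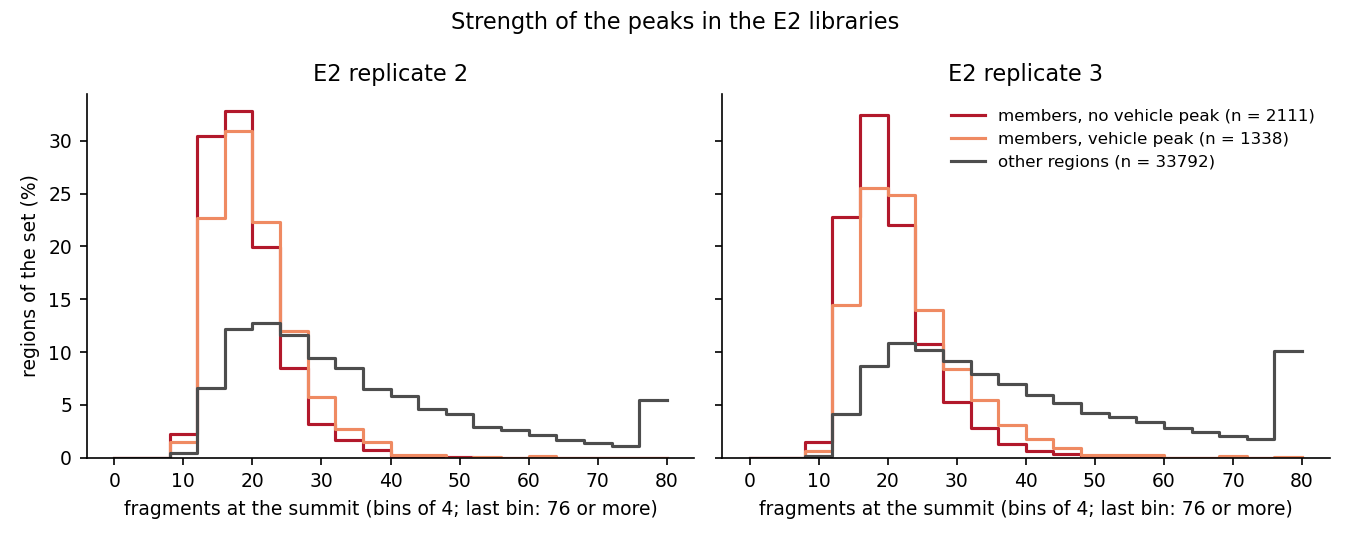
Percent of regions (vertical axis) by the number of fragments at the summit (horizontal axis, bins of 4, with 76 or more in the last) in E2 replicates 2 and 3, for members without a vehicle peak, members with one, and the other regions. Both sets of members pile up near their medians of 17 to 21 fragments, and the other regions extend far to the right.

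The same absence was then counted for the treatments that did not enter the selection. Of the 37241 regions, 7421 had no peak in any vehicle library (19.9%) and 7486 had none in any fulvestrant library (20.1%). A missing peak over 3 libraries was thus less frequent under E2 plus fulvestrant than under either treatment without E2. Single libraries did not keep that order, since E2 plus fulvestrant replicate 1 lacked a peak at 39.4% of the regions, and vehicle replicate 1 and fulvestrant replicates 1 and 3 at 29.2%, 36.6% and 35.7%. Over pairs of libraries the share was 11.1% to 20.2% for E2 plus fulvestrant, the highest without replicate 3, against 22.5% to 33.6% for vehicle and 24.96% to 27.9% for fulvestrant. The lengths of the lists differed too, with 40939 to 66218 peaks under E2 plus fulvestrant, 34293 to 51239 in vehicle and 42541 to 80754 in fulvestrant, and their part in these shares was not tested. All 3 shares grew as the E2 peaks weakened. In the strongest decile of the regions, 0 of 3725 were absent from E2 plus fulvestrant, 13 from vehicle and 31 from fulvestrant. In the weakest decile 1321, 1989 and 1861 of 3724 were absent, which is 35.5% for E2 plus fulvestrant and 53.4% for vehicle. In each decile the share for E2 plus fulvestrant was the lowest of the 3.

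**Figure D2:**
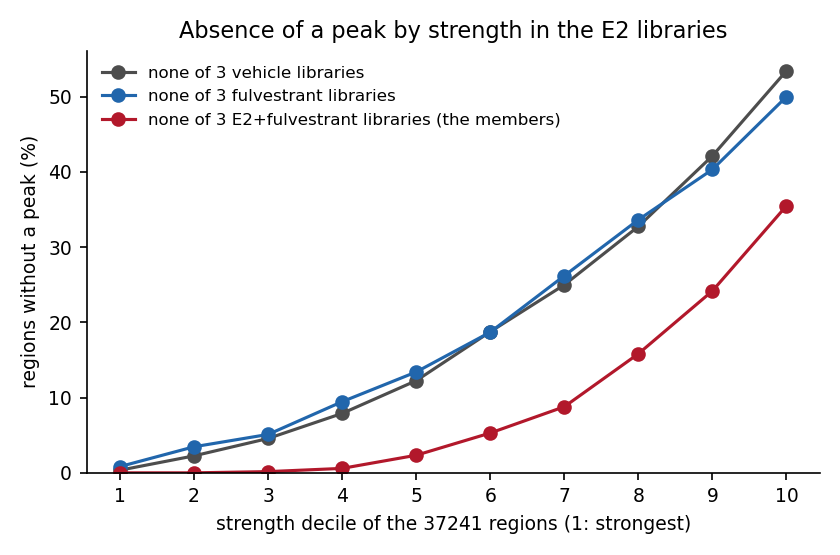
Percent of the 37241 regions without a peak in any of the 3 libraries of a treatment (vertical axis) by decile of strength in the E2 libraries (horizontal axis, 1 strongest). Each line rises from near 0 to between 35.5% and 53.4%, and the members' line is the lowest throughout.

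Just outside the selection lay 6057 regions with a peak in exactly 1 library of E2 plus fulvestrant. Their median rank was 58.2, against 66.7 for members and 18.2 for the 19542 regions with peaks in all 3. Of these 6057 regions, 698 were found in replicate 1 only, 1289 in replicate 2 only and 4070 in replicate 3 only. The single peaks were weak as well, with median −log10 p between 4.57 and 5.34. The number of members therefore turned on E2 plus fulvestrant replicate 3, whose list of 66218 peaks was the longest of the 3. Without it 7519 regions would have qualified, and without replicate 1 or replicate 2 the numbers were 4147 and 4738. Under a threshold of 10 or more for −log10 q in every list, 2412 of 11152 regions met the rule, or 21.6%. At that threshold 46.3% of the 11152 had no vehicle peak and 34.4% no fulvestrant peak. Of the 2412 regions, 2400 held a weaker peak of E2 plus fulvestrant in the full lists. Only 12 held none.

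Vehicle divided the members unequally. No vehicle peak was found for 2111 members, which is 61.2% (Wilson 95% interval 59.6% to 62.8%, counting error only). A further 1000 had a peak in 1 vehicle library, 285 in 2 and 53 in all 3. This share rested on vehicle replicate 1, since without that library 79.2% of members had no vehicle peak. The members without a vehicle peak were somewhat weaker under E2, with a median rank of 68.9 against 63.0 for members with one. Where a vehicle peak existed it was weak too, with a median −log10 p of 4.57, 4.36 and 4.32 in replicates 1, 2 and 3. In fulvestrant alone, 2049 members had no peak, 949 had a peak in 1 library, 378 in 2 and 73 in all 3.

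Each of the 7 libraries outside the selection had fewer peaks at members than at the other regions. Vehicle peaks were present at 26.7%, 10.2% and 13.3% of members and at 75.3%, 56.5% and 59.2% of the other regions. Fulvestrant peaks were present at 16.0%, 21.9% and 17.9% of members and at 68.2%, 56.1% and 69.0% of the other regions. The means over libraries were 16.7% ± 8.76 (SD, n = 3) for vehicle and 18.6% ± 2.99 (SD, n = 3) for fulvestrant, a difference of 1.88 points that was smaller than the spread between vehicle libraries (p = 0.8 by exact permutation of the libraries, two-sided, and 1 after adjustment over 3 measures). The smallest p that 3 libraries against 3 can give is 0.1. The difference turned to -1.37 points without vehicle replicate 2 and was 6.87 points without vehicle replicate 1 and 0.25 without fulvestrant replicate 2. The share of members divided by the share of other regions was 0.253 ± 0.0904 (SD, n = 3) in vehicle and 0.295 ± 0.0831 (SD, n = 3) in fulvestrant (exact permutation test, p = 0.5). In vehicle, fulvestrant and E2 replicate 1 together, 1431 members (41.5%) had no peak in any of the 7 libraries, 891 had a peak in 1, and 3 had a peak in all 7. This count over 7 libraries was not made for the other regions. Without E2 replicate 1, 1483 of 3449 members and 2716 of 33792 other regions had no vehicle and no fulvestrant peak. These contrasts were not adjusted for strength under E2, and members were the weaker set. In the weakest quartile of strength, the shares lay closer together in every vehicle and fulvestrant library. For example, vehicle replicate 1 had peaks at 23.1% of members and 47.0% of other regions there. Fulvestrant replicate 2 had them at 19.2% and 34.5%. Members remained the lower set in each of these libraries.

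**Figure D3:**
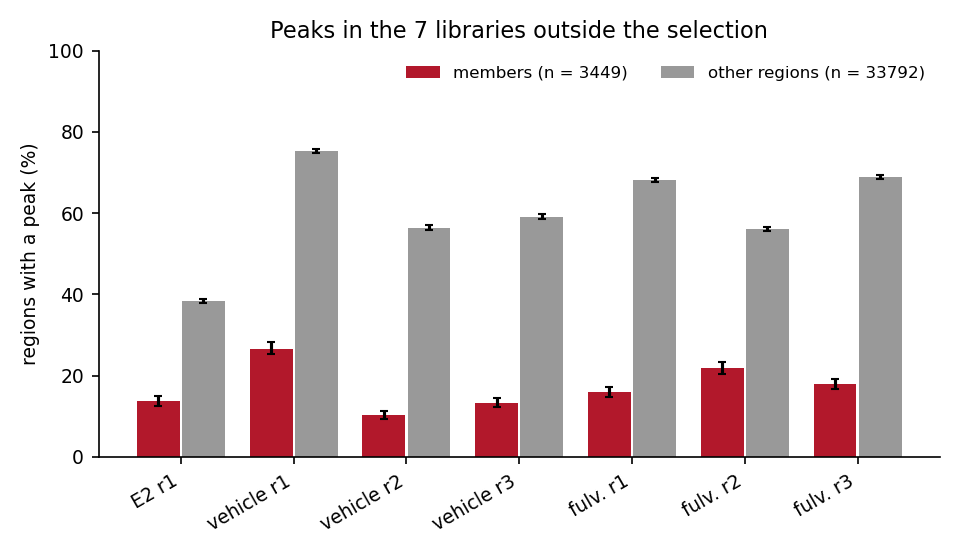
Percent of members and of other regions with a peak (vertical axis) in each of the 7 libraries that did not enter the selection (horizontal axis). Bars start at 0 and error bars are Wilson 95% intervals, which cover counting error only. Members range from 10.2% to 26.7% and the other regions from 38.3% to 75.3%. The shares are not adjusted for strength.

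E2 replicate 1, the third library of the same treatment, had a peak at 473 members. This is 13.7% (12.6% to 14.9%), against 38.3% (37.8% to 38.8%) of the other regions. The difference remained within quartiles of strength. The shares were 18.1% of members and 26.1% of other regions in the third quartile, and 11.6% and 17.6% in the weakest. Members were still the weaker set within these quartiles, with a median rank of 48.2 against 44.2 in the third and 72.1 against 67.0 in the weakest. The list of E2 replicate 1 was the longest of the 12, with 104571 peaks against 60910 and 68971 in E2 replicates 2 and 3. This library and fulvestrant replicate 2 stood apart from the other 10 in the local background at regions shared by all 12 libraries. It was 39.4% and 77.1% of that of the median library, while the other 10 lay between 94.3% and 107%. Sequencing depth itself was not measured. Requiring a peak in E2 replicate 1 as well changed the kind of member that was kept. Of the 473 members it shared, 56.2% were at promoters and 1.27% had an ERE, against 18.8% and 2.86% of the 2976 it did not share. The other regions were divided in the same direction, with 70.5% promoters where E2 replicate 1 had a peak and 17.9% where it had none.

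The response element was somewhat rarer at members than at the other regions, and its share depended on strength and on vehicle. An ERE was found at 2.64% of members (2.15% to 3.23%) and at 3.99% of the other regions (3.79% to 4.20%). The same search in a window 2 kb upstream gave 0.638% and 0.545%. Exact elements were found at 0.493% and 0.778%. Among the 91 ERE members, 73 had no vehicle peak, 65 had neither a vehicle nor a fulvestrant peak, and 6 had a peak in E2 replicate 1. Of all 3449 members these numbers were 2111, 1483 and 473. Of the 1348 other regions with an ERE they were 368, 246 and 356. The ERE members were intronic in 39 cases and intergenic in 37, with 13 at promoters and 2 exonic, and 11 were repeat-masked.

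The difference was also taken within quartiles of strength, and that of the third was singled out after the data were seen. In the third quartile an ERE was found at 5.63% of 781 members and at 213 of 8529 other regions, a difference of 3.14 points (Newcombe 95% interval 1.68 to 5.01). With strength cut by rank in the full lists instead, it was 3.36 points for ranks of 25 to 50 and 0.52 for ranks of 50 to 75. In the weakest quartile, which held 2553 of the members, the shares were 1.61% and 1.47% (difference 0.14 points, interval -0.38 to 0.76). The second quartile held 111 members, 5.41% of them with an ERE, and 3.25% of its other regions had one, which was not distinguishable at this number (interval -0.77 to 8.05). Only 4 members were in the strongest quartile, none with an ERE, where 7.92% of other regions had one.

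The ERE share also differed with vehicle status. Of members without a vehicle peak 3.46% had an ERE, and of members with one 1.35%. The other regions were split in the same direction, at 6.93% and 3.44%. Among third-quartile regions without a vehicle peak, the shares were 10.2% of 383 members and 7.03% of 1822 other regions, 3.16 points apart (interval 0.23 to 6.76). By ranks of 25 to 50 in the full lists they were 11.9% of 261 and 10.1% of 1777, and the interval of that difference spanned 0 (-1.89 to 6.48). Among those with a vehicle peak they were 1.26% and 1.27%. In the second quartile the order was the opposite for regions without a vehicle peak, at 7.27% of 55 members and 17.2% of 789 other regions, with an interval of the difference from -15.2 to 0.33 points. In the weakest quartile without a vehicle peak they were 1.79% and 1.98%. The intervals cover counting error over regions, which are not replicates of a treatment. Among the 1431 members without a peak in any of the 7 other libraries, 64 had an ERE, or 4.47% (3.52% to 5.67%). With neither a vehicle nor a fulvestrant peak, 4.38% of 1483 members and 9.06% of 2716 other regions had one.

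**Figure D4:**
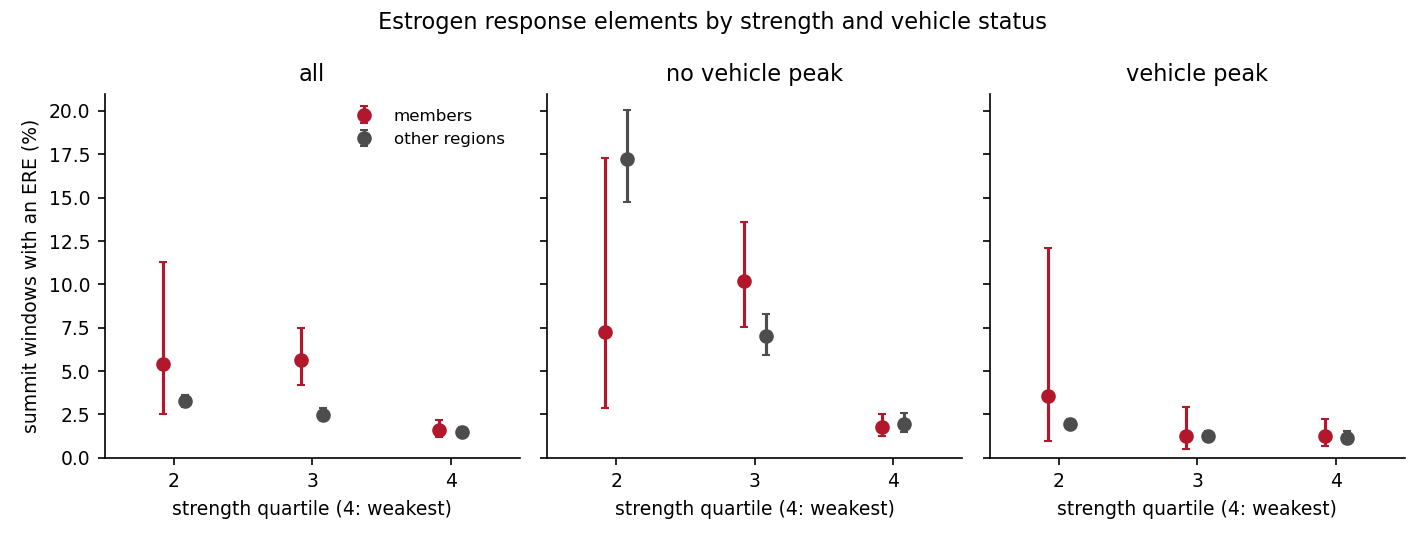
Percent of summit windows with an ERE (vertical axis) by strength quartile (horizontal axis, 4 weakest) for members and other regions, over all regions and split by vehicle peak. Error bars are Wilson 95% intervals. Members exceed the other regions in the third quartile over all regions, where 5.63% of members had one, and the 2 sets lie together at 1.26% and 1.27% where vehicle had a peak.

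Other motifs were searched for in the same windows. The AP-1 site TGAGTCA (bound by Fos and Jun dimers) was found at 7.28% of members and 6.96% of the other regions, with 3.80% and 3.56% in the upstream windows. The GC box GGGCGG, a promoter element of Sp factors, was found at 5.83% of members and 12.6% of the other regions. A PLAG-type site (GAGGC or GGGGC followed after 6 to 8 bases by GGG) was found at 5.57% and 10.1%. TEAD sites (CATTCC) were found at 13.7% and 13.5%, CCAAT at 22.8% and 20.2%, HIF-type sites (ACGTG or GCGTG) at 21.1% and 26.3%, and NR3C-type sites (GNACA and TGTNC spaced by 3 bases) at 0.290% and 0.471%. Within quartiles of strength the GC box shares lay closer together, at 14.4% and 14.2% in the second quartile, 8.71% and 8.98% in the third and 4.54% and 5.82% in the weakest. The HIF-type shares were 27.9% and 27.3%, 22.9% and 23.2%, and 20.3% and 22.0% in the same order. The PLAG-type shares were 9.91% and 10.6%, 6.15% and 7.86%, and 5.17% and 7.03%. Over all strengths, PLAG-type sites were at 5.45% of members and 4.46% of other regions without a vehicle peak. With a vehicle peak these shares were 5.75% and 11.1%. Each motif was read on both strands within 100 bp of the summit. The median GC content of the windows was 46.8% at members and 49.8% at the other regions.

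Fewer members were promoter sites. Summits lay at most 3 kb from a start site in 23.9% of members (22.5% to 25.3%) and 38.1% of the other regions (37.6% to 38.6%). Introns held 42.3% and 32.8%, intergenic sequence 31.4% and 26.6%, and exons 2.46% and 2.48%. Within strength quartiles the promoter shares lay close together, at 44.1% and 42.0% in the second, 31.0% and 28.5% in the third, and 20.8% and 22.4% in the weakest. Promoters made up 20.4% of members without a vehicle peak and 29.4% of members with one. The summit windows of 258 members (7.48%) were over 50% repeat-masked, against 4.01% of the other regions. The summits of the 2 E2 libraries lay a median of 115 bp apart at members and 85 bp apart at the other regions. Within each quartile of strength they lay closer at members, for example 84 against 118 bp in the third and 129 against 160 bp in the weakest. The merged regions were narrower at members too, with a median width of 645 against 1400 bp. It was 723 against 1193 bp in the third quartile and 624 against 970 bp in the weakest. The selection itself favoured this direction. Regions were merged from the peaks of all treatments, and peaks of E2 plus fulvestrant could widen only the other regions. How much of the difference in width came from this was not measured. The part of width in the closer summits was not tested.

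The nearest peak of E2 plus fulvestrant was a median of 2288 bp away, and for 924 members (26.8%) it lay within 500 bp. The nearest other member was a median of 116994 bp away. The members were nearest to 2978 different genes, of which 2605 had 1 member and 68 had 3 or more.

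Of the 10 highest ranked members without a vehicle peak, 4 were intergenic, 4 at promoters and 2 intronic, and for 8 the nearest start site belonged to a pseudogene or a noncoding transcript. The first was chr5:17005567-17007735, 25667 bp downstream of the start of the pseudogene Gm42855. It had 31 fragments over a background of 4.91 in E2 replicate 2 and 37 over 4.49 in E2 replicate 3, and no peak in any other library. Its summit held no ERE with 1 mismatch or fewer:

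Gm42855, intergenic, chr5:17006653-17006753: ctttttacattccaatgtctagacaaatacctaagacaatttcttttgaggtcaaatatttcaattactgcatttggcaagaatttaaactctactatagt

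The member in the Fam189a2 intron had 31 fragments in E2 replicate 2 and 23 in E2 replicate 3, over 4.21 and 4.49. It was the one region among these 10 that held an ERE, and it too had no peak elsewhere. The promoter member of Phlpp1, a phosphatase that acts on AKT, had 34 and 36 fragments in E2 replicates 2 and 3, over backgrounds of 7.24 and 8.17. It had 37 over 2.94 in E2 replicate 1, 34 over 7.72 in fulvestrant replicate 1 and 47 over 6.21 in fulvestrant replicate 2. This site was therefore called in 2 libraries of fulvestrant alone while it was absent with E2 plus fulvestrant. The member at the Gm49077 start, 249 bp from the start of Azin1 (antizyme inhibitor), was also called in fulvestrant replicates 1 and 2, with 40 and 30 fragments. The regions nearest to Gm23681, Gm28900, Gm35520 and Gm7695 had between 27 and 37 fragments in E2 replicate 2 and between 28 and 31 in E2 replicate 3, and no peak in the other libraries. The member near Gm16379 reached 72 fragments in E2 replicate 1. The member near Gm45515, which lies in an intron of Swap70, had a peak of 22 fragments in fulvestrant replicate 3.

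Of the 10 highest ranked members with a vehicle peak, 7 were at promoters. They included Prkaa1 (a catalytic subunit of the energy sensor AMPK), Nfix (a nuclear factor I protein), Ubn2 (of the HIRA histone chaperone complex), Aldh4a1 (a mitochondrial enzyme of proline breakdown), Ddrgk1 (of the UFM1 pathway) and Tspyl1. At Prkaa1 there were 25 and 28 fragments in E2 replicates 2 and 3, 29 in E2 replicate 1, and 17, 20 and 19 in the 3 vehicle libraries. The background was 1.87 in E2 replicate 1 and 3.94 to 4.31 in the rest of these libraries. Only fulvestrant replicate 2 of the fulvestrant libraries had a peak there, with 37 fragments over 3.265. At Ddrgk1 the values were 62 and 87 in E2 replicates 2 and 3, 49 in E2 replicate 1, 48 in vehicle replicate 3 and 68, 65 and 57 in fulvestrant, over backgrounds of 17.1 to 23.5 in all but E2 replicate 1 (8.01). This promoter was thus called in all 3 fulvestrant libraries. At Aldh4a1 there were 61 and 71 fragments in E2 replicates 2 and 3, 28 in E2 replicate 1, 49 in vehicle replicate 1 and 48 in fulvestrant replicate 2. The backgrounds were 17.5, 18.4, 6.14, 19.4 and 12.4 in this order. The member near the 4930555B11Rik start ranked best of all members, at 14.2, with 45 and 57 fragments under E2, 29 and 33 in vehicle replicates 1 and 2, and 29 and 31 in fulvestrant replicates 2 and 3. The 3 members of this set outside promoters were nearest to 4930556I23Rik, Gm25300 and Usp35. The one near Usp35 lay in an intron of Gab2, a docking protein of growth factor receptors, and had 29 and 27 fragments under E2, 15, 15 and 13 in vehicle, and 14 and 15 in fulvestrant replicates 1 and 3. Among the 22 members with a mean rank of 25 or better, 12 were promoters, 12 had no vehicle peak, 8 had no peak in any of the 7 other libraries and 2 had an ERE.

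**Figure D5:**
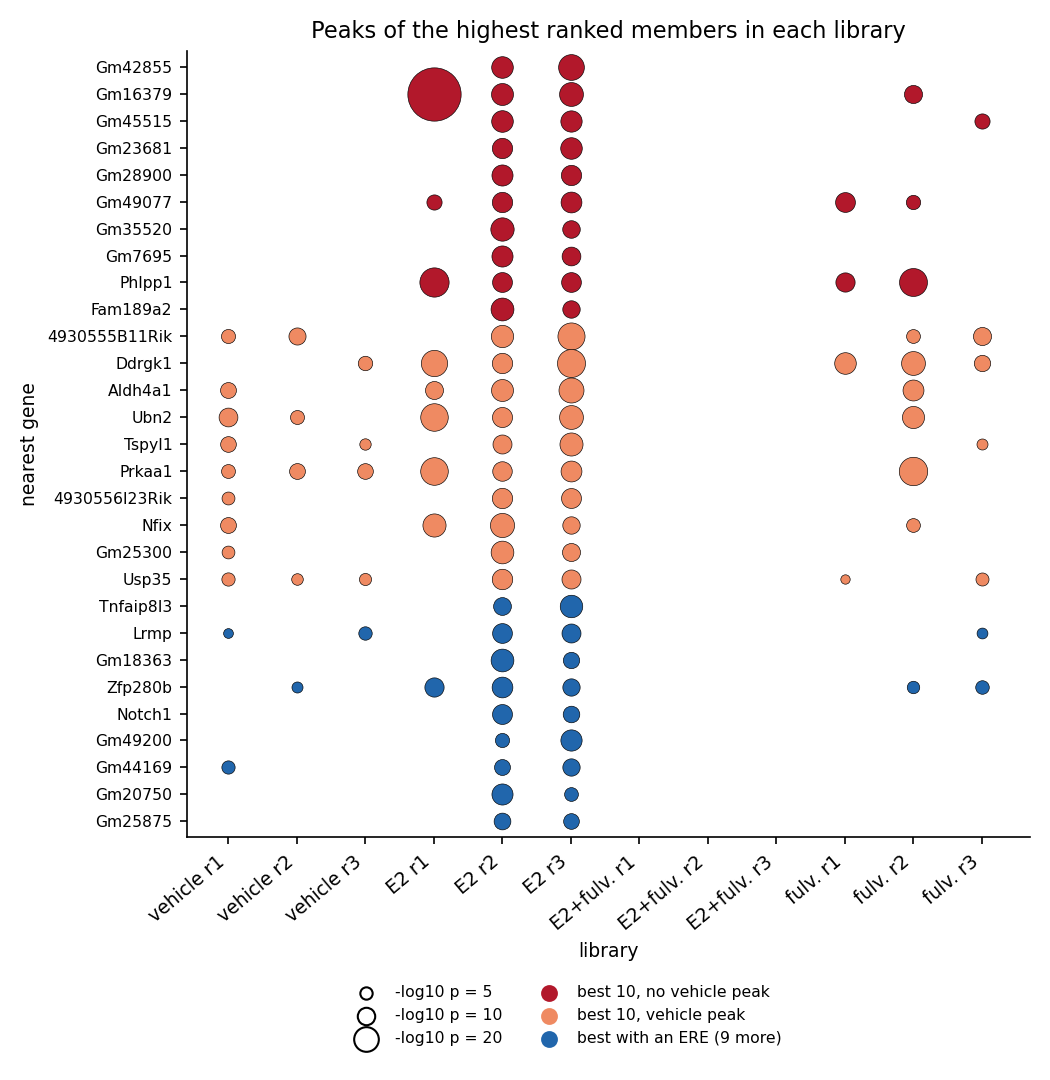
Peaks of the 10 best members without a vehicle peak, the 10 best with one, and the 9 further best members with an ERE (rows, by nearest gene) in each of the 12 libraries (columns). Dot area is proportional to −log10 p and a blank means no peak. The E2 plus fulvestrant columns are blank by the selection, and promoter rows such as Ddrgk1, Prkaa1 and Phlpp1 carry dots in E2 replicate 1 and fulvestrant.

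Among the best ERE members, Tnfaip8l3 had 21 and 29 fragments in E2 replicates 2 and 3, over backgrounds of 3.55 and 3.79. The member 21042 bp upstream of Notch1, which encodes a receptor of Notch signalling, had 30 and 24. Neither had a peak in any other library. Those near Gm18363, Gm49200, Gm20750 and Gm25875 also had no peak in the 7 other libraries. The exact element near Zfp280b lay in a region that had 29 and 24 fragments under E2, 19 in E2 replicate 1, 21 in vehicle replicate 2, and 16 and 26 in fulvestrant replicates 2 and 3. The region near Lrmp had 35 and 33 under E2, 19 and 25 in vehicle replicates 1 and 3, and 19 in fulvestrant replicate 3. The region near Gm44169 had 20 and 21, with 15 in vehicle replicate 1.

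Genes that the study lists for E2 had 26 members among the 211 shared regions nearest to their starts, which is 12.3% (8.55% to 17.4%) against 9.26% over all regions, a value inside the interval. That list was chosen by the study on these samples and is not independent of them. Its members belonged to 12 genes, none had an ERE, and 14 had no vehicle peak. Kcnma1, the pore subunit of the BK potassium channel, had 8 members among 28 regions, the most of any gene by nearest start site. All 8 lay in Kcnma1 introns, at ranks from 37.6 to 73.9, and 3 had no vehicle peak. The strongest of them, chr14:23885041-23886207, had 31 and 30 fragments over 8.42 and 9.17 in the E2 libraries, 10 in E2 replicate 1, 20 in vehicle replicate 3 and 24 in fulvestrant replicate 2. Svil, an actin-binding membrane protein, had 3 members of 20 regions. The member 32592 bp upstream of Spats2l had 33 and 28 fragments under E2, 16 in vehicle replicate 1 and 17 in fulvestrant replicate 3. Aff3, Apcdd1, Adamts6 and Prickle2 had 2 each, and Nrp2, Rnf150, Pknox2 and Ccn3 had 1 each. The genes the study lists for E2 plus fulvestrant had 5 members of 110 regions, or 4.55%, among them 1 each at Arhgap24, Col4a2, Dcbld2 and Pkp2.

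Classic estrogen target genes had 6 members of 55 regions (10.9%). Bcl2, Ccnd1 and Igf1 had 1 each and Esr1 had 3 of its 10 regions, and the 3 at Esr1 had no peak in the 7 other libraries. The intronic Esr1 member at chr10:4806466-4806811 lay 96472 bp downstream of the nearest annotated start site of the gene. It ranked at 25.9 with 25 fragments over 3.55 in E2 replicate 2 and 22 over 3.79 in E2 replicate 3. The other pair, at chr10:4610350-4610672 and chr10:4733936-4734260, had 16 and 16, and 15 and 13 fragments. The Ccnd1 member, 3441 bp upstream of this cyclin gene, had 21 fragments in both E2 libraries and 10 in E2 replicate 1, with no vehicle or fulvestrant peak. The intronic Bcl2 member had 14 and 13 fragments and no other peak. The Igf1 member, 65684 bp upstream, had 17 and 13 fragments under E2 and 17 in vehicle replicate 1. The progesterone receptor gene Pgr, the best known ESR1 target, had 1 shared region and Greb1 had 2, and no member was among them.

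Matrix genes had 15 members of 157 regions (9.55%). Thbs2 (thrombospondin 2) had 5 of 23, with ranks from 69.5 to 94.3. Fbln2 (fibulin 2) had 3 of 14 and Tnc (tenascin C) 2 of 5, while Eln, Lox, Loxl2, Col4a1 and Col4a2 had 1 each. The Loxl2 promoter member had 24 and 21 fragments under E2 and peaks in 6 of the 7 other libraries, with vehicle replicate 2 the exception. Proteases and their inhibitors had 8 of 83 (9.64%), with 2 at Adamts6, 2 at Timp3, 1 of which held an ERE, and 1 each at Adam10, Adamts1 and Adamts5 among the rest.

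The remaining lists had few members. Assigning regions to the nearest protein-coding start site in place of the nearest start site of any gene moved the shares of some lists, with 9 of 143 regions (6.29%) for classic estrogen targets, 25 of 176 (14.2%) for proteases and inhibitors, 11 of 109 (10.1%) for fibroblast genes and 2 of 39 for markers of other cell types. Mechanosensing genes had 8 members of 79 regions (10.1%), with 3 at Ccn4, 2 at Tead1, and 1 each at Ankrd1, Ccn3 and Tead4, the last with an ERE. Wnt genes had 10 of 108 (9.26%), at Apcdd1, Dkk2, Fzd1, Fzd5, Fzd6, Sfrp1, Ror2 and Ctnnb1. TGF-beta genes had 5 of 67 (7.46%), 1 each at Tgfbr1, Acvr1, Smad3, Smad7 and Ski. The Tgfbr1 promoter member had 25 and 39 fragments in E2 replicates 2 and 3, 55 in E2 replicate 1, 27 and 18 in vehicle replicates 1 and 2, and 23 and 39 in fulvestrant replicates 1 and 2. The backgrounds were 6.57, 7.37, 2.81, 7.10, 8.53, 7.36 and 5.31 in this order. Receptor cofactor genes had 4 of 61 (6.56%), among them 1 each at Gata6 and Ncor1. Cell cycle genes had 4 of 40 (10.0%), at Ccnd1, Ccne1, Cdk1 and E2f3. Fibroblast genes had 3 of 45 (6.67%), at Acta2, Pdgfra and Prrx1, and Fos had the 1 member of 17 regions at AP-1 genes. Markers of other cell types had 0 of 5. Genes outside the lists with 5 or more members were 9430078K24Rik with 7 of 37, Rad51b (of DNA repair by homologous recombination) with 6 of 27, and 2610204G07Rik, Gm44402 and Gm23895 with 5 each. Some of the members nearest to 9430078K24Rik lay in Rad51b introns. Some of those nearest to 2610204G07Rik had Adamts6 as their nearest protein-coding gene.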

How the data were processed

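ESR1 ChIP-Seq was analysed from 12 deposited peak lists, 3 for each of 4 treatments. An input sample in the labels was not analysed here. Per the labels and the methods, the authors used Trimmomatic 0.39 for trimming, Bowtie2 for alignment (mm10), Picard 2.21.4 against duplicates and MACS2 for peaks of each library. In the deposited lists the fold is the ratio of fragments to local background at the summit, p- and q-values are on the −log10 scale, and the score is a rescaled q-value. No read counts per region were used, so no count model was run and the test is of peak presence.

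Peaks overlapping by 1 bp were merged across the lists. Fragments and background at each summit were solved from fold and p, leaving out the peaks whose −log10 p exceeded 100. Each peak solved (100%) matched a whole number of fragments to within 0.001 in −log10 p, and peaks above that limit, found in every list, were not solved. Local background per bp of the smallest peak width was compared over 6858 regions found in all 12 libraries, and read totals were not used. Positions came from GENCODE vM21 (basic), a promoter being within 3 kb of a start site. Motifs were searched in 201 bp around the E2 summit. Vehicle and fulvestrant were compared over libraries by a two-sided exact permutation test; with 3 against 3 the smallest p is 0.1. Wilson and Newcombe 95% intervals cover counting error only. Python 3.11.15, numpy 2.4.6, pandas 2.3.3, scipy 1.17.1, matplotlib 3.10.9 and pyfaidx 0.9.0.4 were used, and the scripts were tested on simulated data.

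The members, gene lists and tests were chosen with earlier results of these data known. Regions named were the 10 best ranked members without a vehicle peak, the 10 with one and the 10 with an ERE. Genes named were the nearest genes of these, the 5 genes with the most members, listed genes that had a member, and Pgr and Greb1. Some listed genes are not reported here. Genes tied with the fifth were named as well. Alternatives were the peak threshold, overlap, distance, motif and promoter windows, repeat masking, E2 replicate 1 and leaving out each library.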

Additional observations from a re-analysis of the deposited data

How the results depend on the processing

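Of 63 alternative values, 39 were counted as kept, 23 moved and 1 reversed. Outside the comparison of fulvestrant with vehicle, kept values stayed within a set tolerance. In that comparison no tolerance was set. Every value of the same sign counted as kept there, because the permutation p could not fall below 0.1, so those labels say nothing about stability. The number of members (3449) fell to 473 when E2 replicate 1 was required, and leaving out 1 library gave 4147 to 18222. An overlap of 50% was counted over peaks of E2 replicate 2 and not over merged regions. There 6374 of the 44459 peaks shared with E2 replicate 3 qualified (14.3%), a number of another unit than 3449. The share without a vehicle peak (61.2%) was 65.2% with peaks at q of at most 0.05, 62.9% with no E2 plus fulvestrant peak within 500 bp, 45.0% with E2 replicate 1 required, and 65.4% to 79.2% without 1 vehicle library. The median rank (66.7) was 62.5 with q of at most 0.05 and 61.7 with E2 replicate 1 required. The promoter share (23.9%) was 21.8% with no peak within 500 bp, 26.8% with E2 replicate 1 and fulvestrant replicate 2 out of the merge, 56.2% with E2 replicate 1 required and 15.0% within 1 kb. The ERE share (2.64%) was 0.493% with no mismatch, 1.65% within 50 bp, 3.91% within 250 bp and 1.27% with E2 replicate 1 required. The ERE difference in the third quartile (3.14 points) was 0.52 for ranks of 50 to 75 in the full lists and 1.15 with no mismatch. Causes were not tested beyond the fewer regions or bases each setting leaves. The difference between fulvestrant and vehicle (1.88 points) reversed to -1.37 without vehicle replicate 2, and leaving out 1 library gave -1.37 to 6.87 (exact permutation p from 0.1 to 1).

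With the replicate number as a block the difference stayed 1.88 points (exact sign flips, p = 0.75, smallest possible 0.25). Libraries of the same number deviated together only weakly (correlations of 0.0604, 0.0725 and 0.0182), so the numbers were not shown to pair the libraries. The ERE difference in the third quartile and all its other settings were chosen after seeing the data. So were the ranks in the full lists and the pairs of libraries.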
